A study of Mus musculus with 10 samples.

Results

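Transcript levels of the 3 angiomotin genes and the 3 Ajuba-family genes were examined in cultured supporting cells of the murine utricle, a balance organ of the inner ear. The members were chosen by gene symbol, Amot, Amotl1, Amotl2, Ajuba, Limd1 and Wtip. Earlier results of these data were known at the choice, so counts of members called beside shares of all genes are descriptions. They are 6 of the 48709 genes in the deposited tables, and all 6 passed the filter on low counts in every comparison. Utricles were taken from mice at postnatal day 21 (P21) that carried the Lfng-EGFP transgene, and EGFP-positive cells were sorted as supporting cells before polyA RNA sequencing. There were 4 conditions: 5 days in 0.1% DMSO, the vehicle, termed control; 5 days in 10 µM TRULI, an inhibitor of the Lats kinases, with the same 0.1% DMSO; and each of these treatments followed by 5 days without any treatment, termed control withdrawal and TRULI withdrawal. Sorting on an Lfng reporter recovers cells that still express the reporter, and Lfng itself ranged from 21.5 to 562 CPM (counts scaled by library size) among the libraries. The labels put 3 libraries in the control group, 3 in the TRULI group and 2 in each withdrawal group.

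For 4 of the 10 libraries the sample label and the name under which the table was deposited give different conditions. The libraries labelled TRULI replicates 1 and 2 were deposited as control withdrawal replicates 1 and 2. Conversely, the pair labelled as control withdrawal (replicates 1 and 2) carries the deposited names of TRULI replicates 2 and 3. The other 6 libraries carry the same condition in both, namely the 3 controls, 1 TRULI library (labelled replicate 3, deposited as replicate 1) and the 2 TRULI withdrawal libraries. Each comparison is therefore given by label, which is the main one, by deposited name and, where possible, in the 6 libraries on which both agree. At 5 days the sign of each member's difference was the same by label and by name, and the calls differed. In the other comparisons the sign of Amotl2 turned with the source, as did that of Amotl1 after withdrawal, where it was close to 0.

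Angiomotins are scaffolds of tight junctions and the apical actin network that bind the transcriptional coactivator Yap, hold it outside the nucleus and promote its phosphorylation by the Lats kinases. Ajuba, Limd1 and Wtip are LIM-domain proteins of adherens junctions that bind Lats kinases, and in epithelia under tension they hold Lats in an inactive state. When Lats is inactive, Yap and its relative Taz enter the nucleus and act through the Tead transcription factors. Several Hippo-pathway genes, Amotl2 among them, are known Yap targets in other tissues. Ajuba and Amotl2 are also among the Yap targets that the study showed. The study took direct targets found in other contexts and showed those that were differentially expressed in these samples. The direction of Ajuba and Amotl2 here is therefore not independent evidence.

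Promoter sequences are shown because the windows searched differed in how many Tead-type letters they held. RefSeq promoter sequences (GRCm38.p6) were found for 5 of the 6 members, and in each the 250 bases before the annotated start were searched on both strands for CATTCC, the core of the Tead binding motif, and for TGANTCA, the AP-1 motif. The motifs can overlap by the letters CA, and no such overlap occurred in these windows. CATTCC was present in 12.6% of the 32851 windows searched and TGANTCA in 6.75%. Capitals mark CATTCC or its reverse complement, each window is written 5′ to 3′ along the strand of the gene, and the last base lies just before the start. GENCODE M21 annotates no UTR at the matches in the Ajuba and Wtip windows.

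Ajuba, chr14:54577662-54577911, minus strand: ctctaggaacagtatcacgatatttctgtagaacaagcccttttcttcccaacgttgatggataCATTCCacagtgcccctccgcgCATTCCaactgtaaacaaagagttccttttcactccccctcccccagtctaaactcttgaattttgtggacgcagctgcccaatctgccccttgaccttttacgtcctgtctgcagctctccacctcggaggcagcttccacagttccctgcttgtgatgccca

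Wtip, chr7:34133269-34133518, minus strand: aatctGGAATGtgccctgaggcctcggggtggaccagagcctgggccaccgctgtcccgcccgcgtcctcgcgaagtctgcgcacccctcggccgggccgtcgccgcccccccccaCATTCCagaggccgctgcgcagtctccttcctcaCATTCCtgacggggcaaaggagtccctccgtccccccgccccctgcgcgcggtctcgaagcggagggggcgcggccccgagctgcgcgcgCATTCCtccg

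Amotl2, 30 bases around its match, chr9:102717727-102717756, plus strand: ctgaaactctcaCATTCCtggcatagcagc

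The Ajuba window held 2 matches, beginning 186 and 164 bases before the start. The Wtip window held 4, at 245 (on the opposite strand), 134, 100 and 10 bases, in a window of 73.6% G and C. The single Amotl2 match began 65 bases before the RefSeq start and falls in a UTR that GENCODE M21 annotates (chr9:102717668-102717902), so only its surroundings are printed. The Amot and Amotl1 windows held no match, and none of the 5 windows held TGANTCA. The Amot, Amotl1 and Amotl2 windows lie inside the gene spans of GENCODE M21. The Amot window is chrX:145487640-145487889, in a minus-strand gene that begins at 145505181. For Amotl1 the window is chr9:14615001-14615250, in a minus-strand gene that begins at 14645056. For Amotl2 it is chr9:102717554-102717803, in a plus-strand gene that begins at 102716672. The bases before those outer starts were not searched, so no lack of matches is shown there. Limd1 was not among the sequences used. These are matches of letters and were not tested as binding sites.

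The tables summed to between 2463872 and 6255149 expected counts, with 12227 to 13863 protein-coding genes detected. No library repeated another. A floor of 3 counts corresponded to 0.468 to 1.2 CPM, and the lowest count of any member was 7. Supporting-cell markers were well detected in all libraries (Sox2 31.4 to 89.3 CPM), with the summed level of 10 markers from 8880 to 13500 CPM in the controls, 7790 CPM in the agreed TRULI library, 9510 to 10000 CPM in the libraries labelled control withdrawal but deposited as TRULI, 3990 to 6540 CPM in those labelled TRULI but deposited as control withdrawal, and 5060 to 5420 CPM after TRULI withdrawal. The summed level of 8 hair-cell markers was 140 to 228 CPM in the controls, 725 in the TRULI library on which both sources agree, 167 to 505 in the libraries labelled control withdrawal but deposited as TRULI, 25.7 to 39.3 in those labelled TRULI but deposited as control withdrawal, and 125 and 822 in the TRULI withdrawal libraries. Markers of endothelium summed to at most 2.95 CPM, of macrophages to at most 18.2, of melanocytes to at most 14.1, of mesenchyme to at most 96.2 and of Schwann cells to at most 138. The share of all counts from the mitochondrial ribosomal RNA mt-Rnr2 was 16.2% to 26.4% in the controls, 18.4% in the agreed TRULI library, 13.0% and 23.7% in those labelled control withdrawal, and 1.45% to 2.53% in the other 4 libraries. The part of these measures in the differences between groups was not tested.

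The 6 genes differed widely in level. On the TPM scale, which divides by transcript length and so allows a comparison between genes, Amotl1 was the most abundant, with a median of 129 TPM over the 10 libraries (percentile 92.0 among 15809 protein-coding genes with any count). Amotl2 (20.8), Wtip (16.1), Limd1 (15.7), Amot (11.4) and Ajuba (6.83 TPM) lay between percentiles 43.3 and 63.2, and their ranges over libraries overlapped. Amotl1 also varied least, with a highest library 2.46 times the lowest. Amotl2 varied 127-fold between libraries on this scale and Ajuba 44.6-fold. The Amotl2 values depend on the transcript length assigned to each library. With 1 length per gene, Amotl2 had a median of 13.7 TPM, below Limd1 (15.8) and Wtip (14.1), and varied 49.9-fold against 44.7-fold for Ajuba. In CPM, which uses no length, Amotl2 varied 30.3-fold and Ajuba 30.1-fold.

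**Figure D1:**
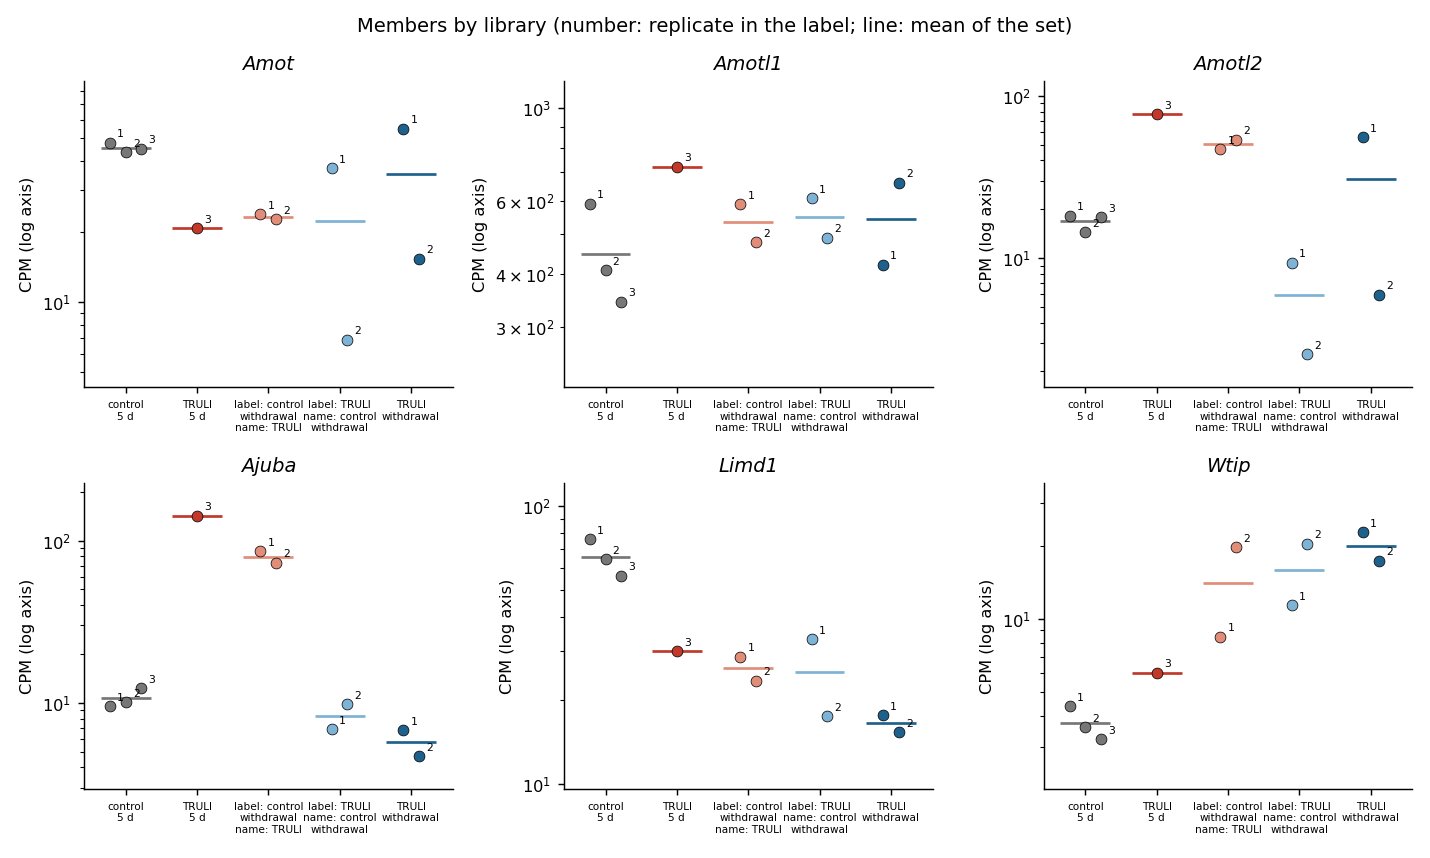
Level of each member in every library, in CPM (counts scaled by library size) on a log axis. Points are libraries numbered by their label, lines are means of the libraries that share both label and deposited name, and Ajuba stands at 72.9 CPM or more in 3 libraries and at 12.3 CPM or less in the other 7.

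Ajuba, the LIM protein after which the family is named, separated the libraries most clearly. It stood at 9.57, 10.1 and 12.3 CPM in the controls and at 142 CPM in the agreed TRULI library. The libraries labelled control withdrawal but deposited as TRULI had 86.3 and 72.9 CPM, and those labelled TRULI but deposited as control withdrawal had 6.86 and 9.82 CPM. The TRULI withdrawal libraries had 6.77 and 4.71 CPM. Counts of 326 to 542 were thus seen in 3 libraries, all deposited as TRULI, and 23 to 50 counts in the other 7, with no overlap.

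By label, Ajuba averaged 52.9 ± 77.2 CPM (SD, n = 3) with TRULI and 10.7 ± 1.45 CPM (n = 3) in controls, and the groups overlapped. The log2 fold change was 2.32 with a standard error (SE) of 1.03. By edgeR's quasi-likelihood test the unadjusted p was 0.0512 and the adjusted p 0.362, so Ajuba was not called. Without the agreed TRULI library the log2 fold change was -0.39. By deposited name TRULI averaged 100 ± 36.6 CPM (n = 3), 9.42-fold higher than control, and no library overlapped (log2 fold change 3.24, SE 0.31, adjusted p = 0.000876 by edgeR). In the libraries on which both sources agree, 1 TRULI library against 3 controls, the value was 3.72 (SE 0.32, adjusted p = 0.000802 by edgeR, assuming that the lone library varies like the controls). The call by name held in each of the 6 fits that left out a library (adjusted p 0.000312 to 0.0183).

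Amotl2, the angiomotin known as a Yap target, was next. It stood at 18.3, 14.4 and 17.8 CPM in the controls, 77.3 CPM in the agreed TRULI library, and 46.9 and 53.9 CPM in the libraries labelled control withdrawal but deposited as TRULI. The libraries labelled TRULI but deposited as control withdrawal had 9.35 and 2.55 CPM. The TRULI withdrawal libraries differed from each other, with 55.9 CPM in replicate 1 and 5.93 CPM in replicate 2. Every library deposited as TRULI was above every control, and the TRULI withdrawal libraries lay on both sides of the controls.

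By label Amotl2 had a log2 fold change of 0.84 at 5 days (SE 0.958, adjusted p = 0.686 by edgeR), with the groups overlapping at 29.7 ± 41.3 and 16.8 ± 2.12 CPM (n = 3 each). By deposited name it rose from 16.8 ± 2.12 to 59.4 ± 15.9 CPM (log2 fold change 1.83, SE 0.274, adjusted p = 0.00623 by edgeR). The agreed libraries gave 2.20 (SE 0.338, adjusted p = 0.0146 by edgeR). The call by name was lost without control library 2 (adjusted p = 0.0576) and with all 10 libraries in one edgeR fit (1.82, SE 0.636, adjusted p = 0.245).

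Amot, the founding angiomotin, had its highest 5-day levels in the controls. Its levels were 47.8, 43.5 and 45.2 CPM in the controls, 20.7 CPM in the agreed TRULI library, and 23.7 and 22.6 CPM in the libraries labelled control withdrawal but deposited as TRULI. The libraries labelled TRULI but deposited as control withdrawal had 37.3 and 6.91 CPM, and TRULI withdrawal had 54.9 and 15.3 CPM. The controls lay close together, above every library labelled or deposited as TRULI, and TRULI withdrawal lay on both sides of them.

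The log2 fold change of Amot was -1.06 by label (SE 0.539, adjusted p = 0.4 by edgeR), -1.01 by name (SE 0.233, adjusted p = 0.04) and -1.13 in the agreed libraries (adjusted p = 0.197). The call by name was lost in all 6 fits that left out a library, with adjusted p from 0.0569 to 0.128, and with all 10 libraries in one fit (0.538).

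Amotl1, the most abundant angiomotin, was called in no comparison. It stood at 589, 409 and 344 CPM in the controls, 723 CPM in the agreed TRULI library, 588 and 478 CPM in those labelled control withdrawal but deposited as TRULI, 607 and 489 CPM in those labelled TRULI but deposited as control withdrawal, and 422 and 661 CPM after TRULI withdrawal. The groups overlapped at 5 days by either source, with log2 fold changes of 0.44 by label (SE 0.361, adjusted p = 0.572 by edgeR) and 0.43 by name (SE 0.257, adjusted p = 0.449).

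Limd1, which binds Lats at adherens junctions, was highest in the 3 controls, at 76.1, 64.4 and 56.3 CPM. All other libraries were lower, at 30.1 CPM in the agreed TRULI library, 28.7 and 23.5 CPM in those labelled control withdrawal but deposited as TRULI, 33.2 and 17.5 CPM in those labelled TRULI but deposited as control withdrawal, and 17.7 and 15.3 CPM after TRULI withdrawal. The controls did not overlap with any other library, whichever source gave the condition.

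The fold change of Limd1 at 5 days was similar by label (log2 -1.28, SE 0.368, adjusted p = 0.323 by edgeR) and by name (-1.24, SE 0.235, adjusted p = 0.0176), and only the second passed the threshold. In the agreed libraries it was -1.11 (adjusted p = 0.191). By name the call was lost without control library 1 (adjusted p = 0.0604), control library 2 (0.0836) or the library deposited as TRULI replicate 2 (0.0648), and with all 10 libraries in one fit (0.0875).

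Wtip, named for its interaction with the Wilms tumor protein WT1, had the opposite order. It was at 4.38, 3.6 and 3.21 CPM in the controls (11 to 13 counts), 6.02 CPM in the agreed TRULI library, and 8.48 and 19.7 CPM in those labelled control withdrawal but deposited as TRULI. It was at 11.4 and 20.4 CPM in those labelled TRULI but deposited as control withdrawal and at 22.7 and 17.4 CPM after TRULI withdrawal. All 7 libraries outside the control group were above the controls, and Wtip did not pass the threshold at 5 days by label (log2 1.74, SE 0.62, adjusted p = 0.333 by edgeR) or by name (1.64, SE 0.531, adjusted p = 0.136). In the agreed libraries its log2 fold change was smaller, at 0.70. The 4 libraries with the lowest mt-Rnr2 share (1.45% to 2.53%) had 11.4 to 22.7 CPM of Wtip, and the other 6 had 3.21 to 19.7 CPM.

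**Figure D2:**
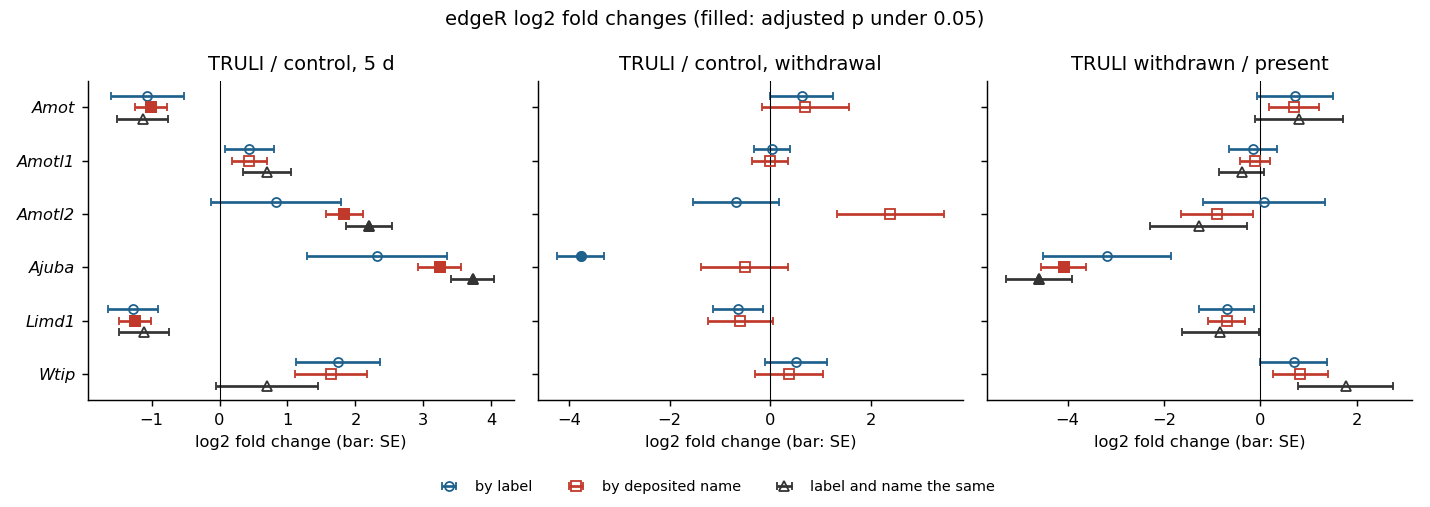
Log2 fold change of each member (horizontal axis) in the 3 comparisons, with bars of 1 SE, for conditions taken from the label, from the deposited name, and from the libraries on which both agree. Filled symbols have an adjusted p under 0.05, and Ajuba is filled by name and by agreement at 5 days at 3.24 and 3.72.

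In all, 0 of the 6 members passed the threshold at 5 days by label, against 0.00945% of the 10580 genes tested that were higher and 0% that were lower by edgeR. At an unadjusted p under 0.05, 1 member (Wtip) stood higher and 1 (Limd1) lower, where 9.52% and 4.27% of all genes did, and DESeq2 also called 0 members, where it called 1.95% of all genes higher and 0.605% lower (it gave Ajuba and Wtip no adjusted p). By deposited name, Ajuba and Amotl2 were higher and Amot and Limd1 lower, where 2.35% of the 10984 genes tested were called higher and 1.24% lower. DESeq2 called the same 4 members in the same directions, with 3.93% and 2.59% of all genes. With the replicate number of the deposited name as a block, edgeR again called these 4, with 6.08% and 4.54% of all genes. The median log2 fold change of the 6 members was 0.64 by label and 1.04 by name, against 0.03 and 0.02 over all genes tested. In the agreed libraries 2 members were higher and 0 lower, where 0.95% and 0.371% of 11576 genes were called. The libraries of the groups did not overlap for 3 members by label (8.29% of all genes were so separated upward and 10% downward) and for 5 by name (10.7% in each direction). The markers of hair cells also stood higher in the libraries deposited as TRULI, with 6 of 7 tested above control at an unadjusted p under 0.05 and 0 at an adjusted p under 0.05 by edgeR (5 by DESeq2), and with 4 of 7 called higher by edgeR in the agreed libraries. With the block of the deposited name edgeR called 5 of these 7 higher. In bulk libraries, fewer cells of a type and less RNA per cell cannot be told apart.

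The composition of each family differed accordingly. Limd1 supplied 64.8% to 71.3% of the Ajuba-family TPM in the controls, and Ajuba 12.5% to 20.1%. Ajuba supplied 81.3% in the agreed TRULI library and 66.7% and 56.9% in the libraries labelled control withdrawal but deposited as TRULI, while Limd1 supplied 12.2% to 15.7% there. Wtip supplied 69.0% in both TRULI withdrawal libraries, and 41.5% and 63.4% in the libraries labelled TRULI but deposited as control withdrawal. The summed TPM of the family was 43.8 to 53.9 in controls, 138 in the agreed TRULI library, 104 and 90.1 in the libraries labelled control withdrawal, and 26.8 to 41.4 in the other 4.

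Amotl1 supplied 72.1% to 83.4% of the angiomotin TPM in the controls and 71.6% to 96.9% in all other libraries except TRULI withdrawal replicate 1, where its share was 40.8% and that of Amotl2 51.6%. The latter value turned on transcript length. The deposited tables give each gene a length weighted over its isoforms, and for Amotl2 this was 1144.1 bases in TRULI withdrawal replicate 1 and 1811.9 to 4014.8 bases in the other libraries. With 1 length per gene in all libraries, an alternative added after the data were seen, Amotl2 in that library was 37.8 TPM in place of 133, and its share 23.1% in place of 51.6%. GENCODE lists 14 Amotl2 transcripts of 329 to 4427 bases, of which 9 are shorter than 1000 bases. Counts and CPM do not use these lengths.

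**Figure D3:**
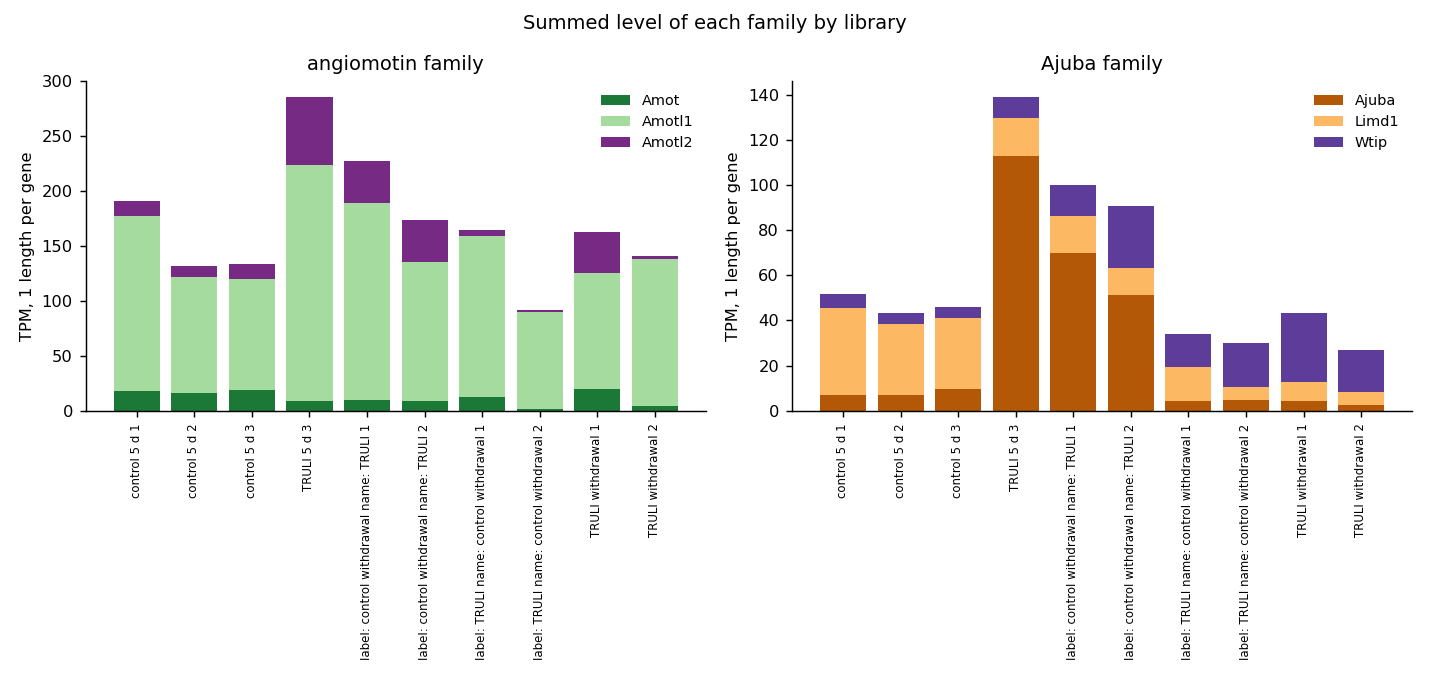
Summed level of the angiomotin genes (left) and Ajuba-family genes (right) in each library, in TPM with 1 length per gene, stacked by member. The Ajuba family reaches 90.8 to 139 TPM in the 3 libraries deposited as TRULI and 26.9 to 51.9 TPM in the other 7.

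The comparison of TRULI withdrawal with control withdrawal asked whether levels still differed 5 days after the inhibitor was removed. By label, Ajuba was 13.6-fold lower after TRULI withdrawal, at 5.74 ± 1.46 against 79.6 ± 9.48 CPM (SD, n = 2 each), with a log2 fold change of -3.77 (SE 0.468, adjusted p = 0.0277 by edgeR). It was the 1 member called, where 1.25% of the 11469 genes tested were called higher and 1.3% lower. Both libraries of that control group were deposited as TRULI. Without either of them the call was lost, with adjusted p up to 0.102, as it was with all 10 libraries in one fit (adjusted p = 0.171). In the same comparison the mt-Rnr2 share was 1.45% to 2.5% against 13.0% to 23.7%, and 2 of 10 supporting-cell markers were called lower, with summed levels of 5060 to 5420 against 9510 to 10000 CPM. Their part in the Ajuba difference was not tested.

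By deposited name the control withdrawal libraries had 8.34 ± 2.09 CPM of Ajuba (n = 2), and the log2 fold change was -0.51 (adjusted p = 1 by edgeR). No member was called, 0% of the 10845 genes tested were called in either direction by edgeR, and no member had an unadjusted p under 0.05, where 3.25% of genes did so upward and 1.5% downward. The mt-Rnr2 shares overlapped by name, at 1.45% to 2.5% and 1.99% to 2.53%. Hair-cell markers differed more. Of the 8 listed, 5 were tested, and all 5 were higher after TRULI withdrawal at an unadjusted p under 0.05 (list median 4.14). Markers low in control withdrawal could pass the filter through the TRULI withdrawal libraries alone, so this count and median depend partly on the filter. At an adjusted p under 0.05, 0 of these 5 were called by edgeR and 3 by DESeq2. With all 10 libraries in one fit by name, 7 were tested, with 7 higher at an unadjusted p under 0.05 and a list median of 3.27. The part of these markers in the member differences was not tested. DESeq2 also called 0 members, with 0.387% of genes higher and 0.0738% lower. Amotl2 was at 30.9 ± 35.3 against 5.95 ± 4.81 CPM by name (n = 2 each), a log2 difference of 2.38 (SE 1.06, adjusted p = 1 by edgeR), and by label against 50.4 ± 4.95 CPM a log2 difference of -0.68 (adjusted p = 0.645). Its direction thus turned with the source of the condition. By label and without TRULI withdrawal replicate 1, Amotl2 was lower by a log2 difference of -3.10 (adjusted p = 4.92e-06 by edgeR). That replicate also had the highest summed hair-cell markers, 822 CPM, with Otof at 445 and Pou4f3 at 173 CPM, and the highest Amot and Wtip of the 10 libraries. No control withdrawal library carries the same condition in both sources, so no agreed value exists for this comparison.

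The comparison of TRULI withdrawn with TRULI present shares its libraries with both comparisons above. By label no member was called by edgeR or DESeq2 (0% of 11444 genes in either direction by edgeR, 0.035% higher and 0% lower by DESeq2), and Ajuba, at 5.74 ± 1.46 against 52.9 ± 77.2 CPM, had a log2 fold change of -3.18 (SE 1.32, adjusted p = 1) and was the 1 member with an unadjusted p under 0.05, where 1.25% of genes were lower at that threshold and 1.82% higher. By name Ajuba was 16.9-fold lower after withdrawal (log2 -4.08, SE 0.458, adjusted p = 0.00743 by edgeR), and it was the 1 member of 6 called, where 8.72% of the 11648 genes tested were called higher and 6.18% lower. In the agreed libraries, 2 against 1, it was 24-fold lower (log2 -4.59, SE 0.682, adjusted p = 0.0484 by edgeR, with the spread taken from the 2 withdrawal libraries alone and the lone TRULI library assumed to vary like them), where 0.0416% of 12012 genes were called lower and 0.0666% higher. The call by name was lost without the library deposited as TRULI replicate 2 (adjusted p = 0.0566). Between these groups by name the mt-Rnr2 share was 1.45% to 2.5% after withdrawal and 13.0% to 23.7% with TRULI present, and 4 of 10 supporting-cell markers were called lower after withdrawal. Their part in the Ajuba difference was not tested.

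Amotl2 was lower by name with a log2 value of -0.90 (adjusted p = 0.423 by edgeR), and without TRULI withdrawal replicate 1 this became -3.27 (adjusted p = 0.00587). Amot was called higher by name only without TRULI withdrawal replicate 2 (log2 1.29, adjusted p = 0.0454). The difference in effect between 5 days and withdrawal was itself tested with all 10 libraries in a single fit. For Ajuba it was a log2 value of 6.08 by label (SE 1.49, adjusted p = 0.578 by edgeR) and 3.73 by name (SE 0.58, adjusted p = 0.0947). No member passed, and neither did any other of the 11918 genes tested (0% by either source). The unadjusted p of Ajuba in this edgeR test was 0.00157 by label and 2.15e-05 by name. The share of all genes at an unadjusted p under 0.05 was not computed for it, so no background stands beside these values.

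Other genes of the pathway were examined as lists. None was called at 5 days by label in the zyxin group, the Hippo kinases and their regulators, the Yap, Taz and Tead factors, the binding partners of either family or a signature of Yap and Taz targets without Amotl2. At an unadjusted p under 0.05 these lists had 1 of 4, 2 of 24, 2 of 7, 1 and 4 of 20 and 11, and 4 of 17 tested genes higher, and in the signature 1 lower, where 9.52% of all genes were higher and 4.27% lower at that threshold. DESeq2 called 1 gene, higher, among the partners of Ajuba proteins. List medians by label were between -0.14 (the signature) and 0.83 (partners of Ajuba proteins), against 0.03 over all genes tested.

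By deposited name at 5 days, 4 of 17 tested signature genes were higher and 1 lower by edgeR, with a list median of 0.49 against 0.02 over all genes. Ccn2, a secreted matrix protein and common readout of Yap, had the largest difference at a log2 value of 5.57 (adjusted p = 1.73e-05). Lats2, a kinase that phosphorylates Yap (1.48, adjusted p = 0.0335), and Ptpn14, a phosphatase that binds Yap (1.35, adjusted p = 0.029), were higher, and both also count among the 2 of 24 Hippo kinases and regulators called. Igfbp3, which binds insulin-like growth factors, was the remaining higher gene (1.08, adjusted p = 0.0218; it is named beyond the rule of 4 genes a list, after its values were seen), and Crim1, a transmembrane protein that binds growth factors, was lower (-1.24, adjusted p = 0.00891).

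None of the 4 zyxin-group genes, LIM proteins of focal adhesions related to the Ajuba family, was called at 5 days by name, with 1 higher at an unadjusted p under 0.05 and 0 called by DESeq2. Zyx itself was at 57, 35.3 and 64.9 CPM in controls and at 43.7, 49.6 and 50.1 CPM in the libraries deposited as TRULI, which overlapped. The Yap, Taz and Tead factors had 0 of 7 called by edgeR (2 at an unadjusted p under 0.05, 1 by DESeq2), the partners of angiomotins 0 of 20 (2 higher and 1 lower unadjusted, 0 by DESeq2) and the partners of Ajuba proteins 0 of 12 (2 higher and 1 lower unadjusted, 0 by DESeq2). Their medians were 0.09, 0.02 and 0.05, and over all genes 9.35% were higher and 7.19% lower at an unadjusted p under 0.05. More genes passed with the block of the deposited name, where 6.08% of all genes were called higher and 4.54% lower by edgeR. Its numbers were taken to pair the 5-day libraries from these same expression values, so the added calls rest on that assumption. The block called 2 of 20 angiomotin partners, the ubiquitin ligase Nedd4l (log2 0.78, adjusted p = 0.0102) and the tight-junction scaffold Tjp1 (0.68, adjusted p = 0.0185). It called 3 of 12 Ajuba partners, the mitotic kinase Aurka (1.96), the oxygen sensor Egln1 (0.92) and the ubiquitin-ligase subunit Vhl (0.84). It also called Tead1 (1.07, adjusted p = 0.00896) as 1 of 7 Yap, Taz and Tead factors, 3 of 24 Hippo kinases and regulators and 0 of 4 zyxin-group genes, each count being of higher genes, and 7 higher and 2 lower signature genes of 17. In the agreed libraries 1 signature gene was called, higher, and none of the other pathway lists.

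After withdrawal, by label, Vcl, which encodes vinculin and links cadherin complexes to actin, was higher (log2 3.43, adjusted p = 0.0277 by edgeR) as 1 of 13 partners of Ajuba proteins tested. The signature had Ccn2 (-5.64) and Igfbp3 (-2.62, adjusted p = 0.0277) lower by edgeR, which called 1.25% of all genes higher and 1.3% lower. DESeq2 by label called 4 of 26 Hippo kinases and regulators higher and 1 lower. It called 1 of 7 Yap, Taz and Tead factors, 1 of 20 angiomotin partners and 3 of 13 Ajuba partners higher. Of the 17 signature genes tested it called 4 lower. The share of all genes that DESeq2 called there is not given here. No gene of these pathway lists was called after withdrawal by name by edgeR or DESeq2, and 1 signature gene stood higher at an unadjusted p under 0.05. Between TRULI withdrawn and present, no gene of these lists was called by label by edgeR or DESeq2, and 1 signature gene stood higher at an unadjusted p under 0.05. By name, 4 of 26 Hippo kinases and regulators were higher and 1 lower, 1 of 7 Yap, Taz and Tead factors was higher, 1 of 20 angiomotin partners was higher, 4 of 13 Ajuba partners were higher, and 4 of 17 signature genes were lower. These included Vcl (3.62) and Wwtr1, which encodes Taz (1.58), as higher genes, and Sav1, a scaffold of the Hippo kinases (-2.11), Ccn2 (-5.83) and Ccn1 (-2.49) as lower ones. Beside them the background was 8.72% higher and 6.18% lower.

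The genes whose pattern over the 10 libraries was most like each member were taken from 8260 protein-coding genes with a mean of at least 10 CPM, by Pearson's r of log2(CPM + 1). For Ajuba they were Ccn2 (0.97), Agrn (0.964) and Itgb4 (0.959). For Amotl2 they were Fam107b (0.984), Dpysl2 (0.968) and Nrep (0.961). For Limd1 they were Il4ra (0.974), Tmem221 (0.965) and Tm9sf2 (0.956), for Wtip Wdr70 (0.973), Gal3st1 (0.96) and Bnip1 (0.96), for Amot Gab2 (0.96), Stat3 (0.946) and Anks1 (0.944), and for Amotl1 Agbl2 (0.906), Glyat (0.894) and Stc1 (0.891). The libraries share preparation, depth and condition, and those of Ajuba fall into 3 high and 7 low libraries, so the Ajuba values describe mainly that separation. Without the 2 libraries farthest from the median of the member, the r of Ajuba with Ccn2 was 0.936 and that of Amotl2 with Fam107b 0.98. For Ajuba the libraries left out were those at 142 and 86.3 CPM. The high library at 72.9 CPM stayed in, and Ccn2 was also high there. This r therefore cannot show a likeness beyond the separation of high and low libraries.

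Ccn2 stood at 8.83 to 15.5 CPM in the controls, 709 CPM in the agreed TRULI library, 490 and 480 CPM in the libraries labelled control withdrawal but deposited as TRULI, and 2.03 to 15.3 CPM in the other 4. Its 3 highest libraries were those of Ajuba. Amotl2 shared them but was also high in TRULI withdrawal replicate 1, where Ccn2 was at 15.3 CPM. Among the members themselves the largest r in size over the 10 libraries was that of Limd1 with Wtip, at -0.913, followed by Amotl2 with Ajuba at 0.702.

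**Figure D4:**
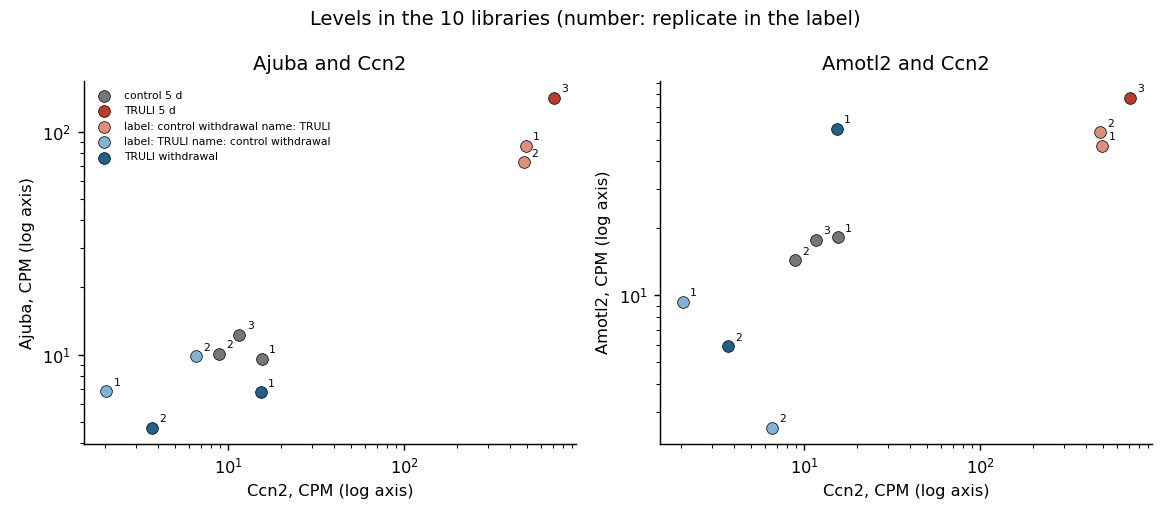
Level of Ajuba (left) and Amotl2 (right) against that of Ccn2 in the 10 libraries, all in CPM on log axes, with points colored by label and deposited name and numbered by label. The 3 libraries deposited as TRULI lie at 480 to 709 CPM of Ccn2, and 1 TRULI withdrawal library has 55.9 CPM of Amotl2 at 15.3 CPM of Ccn2.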

How the data were processed

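Supporting cells sorted from utricles were profiled by RNA sequencing in 10 libraries. Reads had been aligned by the authors to GRCm38 (mm10) with STAR, and the deposited tables hold expected counts per gene, not normalized, with an effective length for each gene. The counting program is not given in the sources used here. Conditions came from the labels, with the deposited names as an alternative for the 4 libraries that differ. The study's methods call the replicates biological. Members and gene lists were chosen with earlier results of these data known.

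Symbols and positions came from GENCODE M21 (48349 of 48709 genes matched). Expected counts were rounded and protein-coding genes tested in edgeR 4.0.16 under R 4.3.3 (filterByExpr, TMM, quasi-likelihood F-test), with the 2 groups of a comparison in one fit. A gene was called when its p, adjusted by Benjamini-Hochberg over every gene tested, was under 0.05. CPM used TMM factors over all 10 libraries, and TPM used the counts and effective lengths of protein-coding genes. The fit of each comparison by label was tested on data simulated with 4-fold changes and a dispersion of 0.1 for all genes. It recovered 184 of 200 changed genes at 5 days, with 6 false calls. After withdrawal it recovered 140 of 199 with 6 false calls, and between TRULI withdrawn and present 174 of 200 with 9. The simulation did not include the unlike libraries within the labelled groups, so it does not show how the fits perform with them. Named genes were the members, up to 4 called genes of each list with the largest difference (Igfbp3 at 5 days was added after its values were seen), and the 3 genes most like each member. Correlations and CPM carry no correction for batch, since the labels give none, and the depth limits low genes through counting error.

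The replicate numbers were checked for pairing. The labels give replicate numbers and no statement of pairing. By deposited name at 5 days, same-numbered libraries deviated together (correlations 0.379, 0.19 and 0.311 over 11918 genes), and the numbers were taken to pair those libraries. This pairing was read from the same expression values that the block then tested, so it is an assumption. By label they did not (-0.151, 0.0584 and -0.189). The 2-against-2 comparisons had 0.211 by label and 0.165 by name, where centering gives other-numbered libraries the same value with the sign turned. Alternatives were the deposited name, the agreed libraries, the replicate block, DESeq2 1.42.0, its size factors in edgeR, no filter, all 10 libraries in one fit, mitochondrial genes left out of totals, a log2 fold change beyond 1 and leaving out each library. The alternatives that combine the deposited name with size factors, with mitochondrial genes left out or with the fold limit were chosen after seeing the data, as was the TPM with 1 length per gene.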

Additional observations from a re-analysis of the deposited data

How the results depend on the processing

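With the deposited name in place of the label, the number of members called higher at 5 days went from 0 to 2, and this was 2 also with DESeq2, with its size factors, without mitochondrial genes in the totals, without the filter, with the fold limit and in the agreed libraries, and 1 with all 10 libraries in one fit. The number called lower went from 0 to 2 in the same fits, and stayed 0 in the agreed libraries and with all 10 libraries. Leaving out each library, the counts were 1 to 2 higher and 0 to 1 lower by name. Over all genes by name, edgeR called 2.35% higher and 1.24% lower, and DESeq2 3.93% and 2.59%. For no comparison is such a share given for the size factors, totals without mitochondrial genes, no filter or the fold limit. Nor is it given for all 10 libraries in one fit or for leaving out each library, so those counts have no background beside them. By label, without TRULI replicate 3, 1 was higher and 1 lower, Ajuba was -0.39 and Amotl2 -1.45 on the log2 scale, and leaving out each library by label the ranges were -0.39 to 2.85 and -1.45 to 1.37.

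With the replicate block of the deposited name, taken to pair the libraries at 5 days, 2 members were again called higher and 2 lower. Of all genes 6.08% and 4.54% were called, in place of 2.35% and 1.24%. The block changed no call of a member, and in the gene lists at 5 days it called more genes. After withdrawal the block by name left 0 called, with Amotl2 at 2.02 and Amotl1 at -0.031, and between TRULI withdrawn and present 1 was lower, with Amotl2 at -1.60. The block of the label, whose same-numbered libraries did not deviate together at 5 days, gave Amotl2 -0.41 at 5 days.

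After withdrawal the count called lower went from 1 by label to 0 with all 10 libraries in one fit and to 0 under every fit by name. Leaving out each library it was 0 to 2 by label and 0 by name. By name the sign of 2 members turned. Amotl1 was -0.0083 and, with all 10 libraries, DESeq2, its size factors, no mitochondrial genes and no filter, -0.019, -0.015, -0.015, -0.0078 and -0.0025. Amotl2 was 2.38 and in the same order 2.30, 2.39, 2.37, 2.38 and 2.37. Leaving out each library, log2 values by label ranged from -0.61 to 1.24 for Amot, from -0.34 to 0.29 for Amotl1 and from -3.10 to 0.14 for Amotl2. By name they ranged from -0.54 to 2.35 for Amot, from -0.35 to 0.27 for Amotl1, from -0.035 to 3.60 for Amotl2 and from -0.019 to 0.84 for Wtip. Without control withdrawal replicate 2 by name, Amot was -0.054, Amotl1 -0.15 and Amotl2 1.76, and without TRULI withdrawal replicate 2 Amotl2 was 3.21.

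Between TRULI withdrawn and present, the count called lower went from 0 by label to 1 by name under each setting and in the agreed libraries, and to 0 to 2 by name leaving out each library, with 0 to 1 higher. Amotl2 turned to -0.90 by name and, in the order above, -0.94, -0.91, -0.91, -0.92 and -0.89, and to -1.28 in the agreed libraries. Leaving out each library, Amotl2 ranged from -2.31 to 2.38 by label and from -3.27 to -0.096 by name, Amot from -0.50 to 1.37 and from -0.50 to 1.29, and Amotl1 from -0.49 to 0.13 and from -0.51 to 0.19. By name, without TRULI replicate 1, 2 or 3 in turn, Amotl2 was -0.68, -1.06 and -0.95, and Amotl1 was 0.034 without replicate 1. Libraries were also compared in pairs by chi-square per degree of freedom of their counts, which is larger for less alike libraries and grows with depth. Those labelled TRULI but deposited as control withdrawal had 29.3 to 52.1 with TRULI withdrawal and 114 to 184 with the controls. Those labelled control withdrawal but deposited as TRULI had 15.3 and 26 with the agreed TRULI library and 117 to 171 with TRULI withdrawal. The cause of the difference between label and name was not tested. Counts as low as 7 for Amotl2, 11 for Wtip, 19 for Amot and 23 for Ajuba limit the precision of single libraries by counting error.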
